A study of Mus musculus with 61 samples.

Results

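Salivary glands of control NOD mice at week 16 were compared with those at week 12. The question was which transcripts changed between these ages without any treatment of the lymphotoxin pathway. The comparison used 16 of the 61 arrays of the series, 8 of week 16 and 8 of week 12, and at each week 4 arrays came from mice given the control antibody MOPC-21 and 4 from untreated mice. NOD is an inbred strain that develops autoimmune inflammation of several glands, and the study used male mice for its arrays. MOPC-21 is a murine IgG1 that was injected into the peritoneum weekly from week 8. Both groups were therefore control mice, and no array of the comparison came from a mouse given LTBR-Ig, the decoy receptor that binds lymphotoxin. Submandibular and other major salivary glands, parotid included, were pooled for each sample, and the cervical lymph nodes were dissected away. The labels do not state that each salivary array was a separate mouse, so p-values measure the spread between arrays. For the age comparison that spread was taken from all 30 salivary arrays, those of other weeks and of LTBR-Ig included. Values are log2 expression on Affymetrix whole-genome mouse arrays, and a difference of 1 is a fold of 2.

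Male NOD mice are known for strong inflammation of the lacrimal gland, and the study states that they rarely develop salivary gland disease. The submandibular gland makes saliva from acini, and its granular ducts secrete kallikreins and growth factors. Plasma cells between the acini make IgA, which is carried into saliva. Matrix and guidance proteins, growth factors and pericytes shape the stroma and vessels around the ducts. In bulk samples such as these, fewer cells of a type and less RNA per cell cannot be told apart.

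The gland label held. The 11 measured granular duct products averaged 14.12 to 14.33 in week 16 arrays and 14.18 to 14.29 in week 12 arrays, and the 16 measured acinar products averaged 13.07 to 13.95 at week 16 and 13.10 to 13.75 at week 12. The mean of 50 lacrimal-gland probe sets lay between 3.63 and 3.99 at week 16 and between 3.60 and 3.92 at week 12, against 10.90 to 11.07 in lacrimal glands of week 8. Of 19 T cell markers, none of the 16 with a probe set exceeded 4 on the log2 scale in 2 or more of the 16 arrays, the minimum for a test, and of 20 skeletal muscle markers Eno3 alone did. One array stood apart. In MOPC-21 week 12 replicate 2, the 5 prime Gapdh control probe set read 6.21, against 12.13 to 12.91 in the other 29 salivary arrays, its 3 prime minus 5 prime difference was 3.90, against -0.98 to -0.08, and 3087 probe sets lay 2-fold or more below the mean of the other 7 arrays of its week. Results are therefore given with and without it.

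Most of the transcriptome differed little. Of 19385 probe sets tested, 15 passed a fold of 2 and a limma adjusted p under 0.05, which is 0.0774% of those tested, 13 higher and 2 lower at week 16. After quantile normalization 4 were higher and 4 lower, and after median centring 3 were higher and 4 lower. Without MOPC-21 week 12 replicate 2 the count was 6, or 0.031%, all higher. With no minimum fold, 596 probe sets passed (3.07%), 506 higher and 90 lower, and 794 (4.1%) without that array, of which 490 passed in both fits. Among 9788 genes, each represented by its brightest probe set, 4 passed with a fold of 2 (0.0409%). With no minimum fold 235 passed (2.4%), 184 higher (1.88%) and 51 lower (0.521%), and 358 (3.66%) without that array, of which 196 passed in both fits. Among probe sets that passed with no minimum fold, 84.9% were higher on the deposited values. That share was 43.4% after quantile normalization and 30% after centring each array on its median. The median change of all probe sets was 0.08, -0.01 and -0.03 in that order. Leaving out single arrays gave 6 to 65 calls, with 65 without MOPC-21 week 12 replicate 4, 47 without MOPC-21 week 12 replicate 3 and 9 without untreated week 12 replicate 3, and 200 to 2016 probe sets past the test with no minimum fold.

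Slit2, Thbs1, Pdgfa, Helz2, Mme, Mosmo and Dnttip2 were higher at week 16, and Smco4 and Fgd6 were lower. These 9 of 100 named genes passed the test under every alternative run for them. All of them belong to a set that was chosen after the values were seen, for passing in both fits with no overlap between the weeks, so their lack of overlap and part of their stability follow from that choice. Slit2, a secreted guidance cue that binds Robo receptors, read 9.07 to 9.58 (median 9.32) at week 16 and 8.46 to 9.03 (median 8.69) at week 12. The 8 arrays of each week did not overlap. The change was 0.58 ± 0.09 (standard error, n = 8 and 8; limma adjusted p = 0.003), and 0.63 without the array that stood apart. Thbs1 encodes thrombospondin-1, a matrix glycoprotein that activates latent TGF-beta. Its brighter probe set read 7.90 to 8.21 (median 8.11) at week 16 and 7.07 to 7.79 (median 7.63) at week 12, with no overlap. The change was 0.57 ± 0.10 (adjusted p by limma 0.0073). A second Thbs1 probe set, at 6.99 to 7.26 in week 16 arrays and 4.13 to 6.74 in week 12 arrays, differed by 1.10 with all arrays and by 0.80 without the one that stood apart. Pdgfa, a growth factor for fibroblasts and other mesenchymal cells, read 7.79 to 8.22 (median 7.97) at week 16, against 7.31 to 7.65 (median 7.46) at week 12, and its change was 0.53 ± 0.08 (limma adjusted p = 0.0013). All 8 arrays of week 16 were above all 8 of week 12. Helz2, an interferon-inducible helicase, read 7.33 to 7.86 (median 7.57) at week 16 and 6.26 to 7.22 (median 6.89) at week 12, a change of 0.71 ± 0.12 (limma adjusted p = 0.0043).

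Smco4 fell to 6.34 to 6.97 (median 6.46) at week 16, against 7.16 to 7.81 (median 7.45) at week 12, and the groups were apart. The change was -0.93 ± 0.13 (adjusted p by limma 0.00079). In LTBR-Ig glands, which are other arrays, it read 6.41 to 6.98 in the 4 of week 16 and 7.53 and 8.86 in the 2 of week 12, a change of -1.41 (limma adjusted p = 0.013), and those 2 arrays were both high in parotid products. The other 8 of the 9 genes did not pass in LTBR-Ig glands with all arrays. Pdgfa was at -0.02, Fgd6 at -0.24 and Helz2 at 0.24, while Slit2 was at 0.51 and Mme at 0.59. In the fit without MOPC-21 week 12 replicate 2, Mme passed there as well (limma adjusted p = 0.047). Fgd6, an exchange factor for Cdc42, read 3.86 to 4.57 (median 4.41) at week 16 and 4.75 to 6.02 (median 5.28) at week 12, a change of -0.96 ± 0.17 (limma adjusted p = 0.0049). It lay near the level of 4 that counted as expressed.

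**Figure D1:**
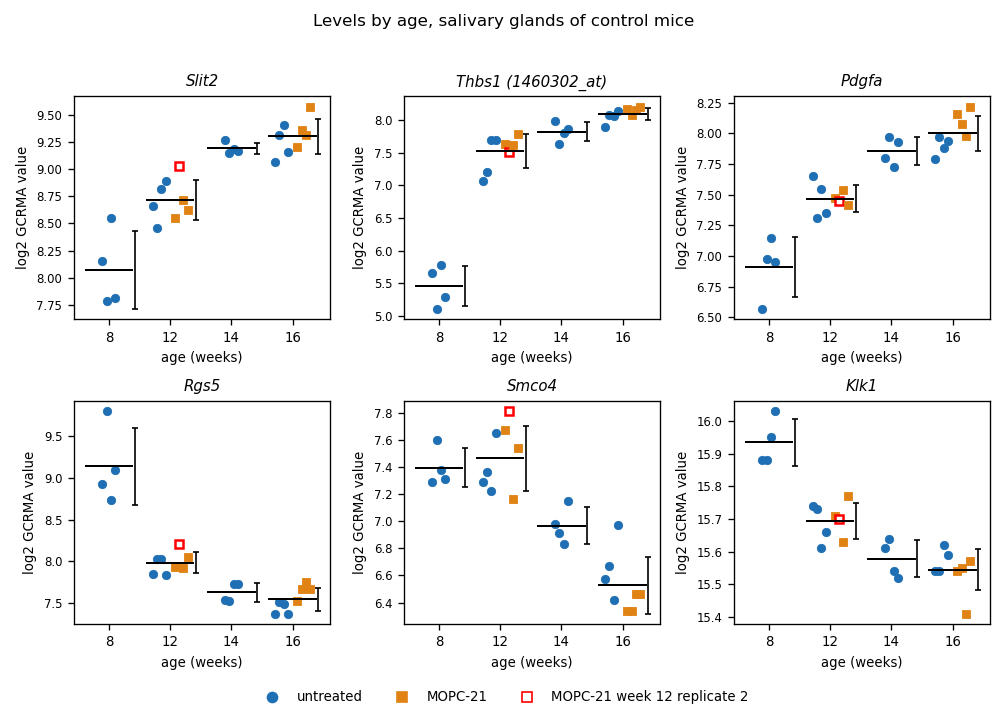
Log2 values of 6 genes by age, 1 point per array, with a line at the mean and a bar of 1 SD; the points of weeks 12 and 16 are untreated and MOPC-21 arrays, those of weeks 8 and 14 are untreated arrays. By their means, Slit2, Thbs1 and Pdgfa were lowest at week 8 and Rgs5 and Klk1 highest. The mean of Smco4 at week 14 lay between its means at weeks 12 and 16.

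The whole of that set, the genes that passed in both fits and whose arrays of the 2 weeks did not overlap, held 36 genes, 30 higher and 6 lower, where 55 of 9788 genes were without overlap (0.562%), and 83 (0.848%) without the array that stood apart. Their changes ran from 0.23 to 0.92 and from -0.26 to -0.96. Not all were part of a steady course with age. Mean levels at untreated week 8, week 12 and week 16 were 7.32, 6.86 and 7.57 for Helz2. They were 7.6, 7.18 and 7.69 for Cast, and 12.16, 11.43 and 11.87 for Ddx3x. Others, such as Slit2, Thbs1 and Pdgfa, had their lowest mean at week 8. Of the 36, 24 also passed, 18 higher and 6 lower, after quantile normalization and after median centring. Lamp2, a lysosomal membrane protein, read 10.97 to 11.14 at week 16 and 10.43 to 10.91 at week 12 (change 0.32). Slc38a2, an amino acid transporter, read 10.94 to 11.29 at week 16 and 10.43 to 10.88 at week 12 (change 0.38). Mme, the peptidase neprilysin, read 9.0 to 9.39 at week 16 and 8.49 to 8.88 at week 12 (change 0.44). Coq10b, which binds coenzyme Q, had the largest rise of the set, 0.92 ± 0.21, with 7.90 to 8.72 at week 16 and 6.47 to 7.85 at week 12. Lgals3, the lectin galectin-3, differed by 0.28, and it failed the test after median centring. Among the lower genes, Rgs5, a G protein regulator known as a pericyte marker, read 7.37 to 7.75 at week 16 and 7.83 to 8.21 at week 12 (change -0.44). Rxrb, a retinoid X receptor, read 5.49 to 5.78 at week 16 and 5.79 to 6.31 at week 12 (change -0.37). In the LTBR-Ig glands, whose week 12 side was the 2 arrays high in parotid products, 32 of the 36 had the same direction, where 63.8% of all probe sets did, and 2 passed, where 0.235% of the 9788 genes did. Without the array that stood apart 6 of the 36 passed there, where 268 of 19385 probe sets did.

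**Figure D2:**
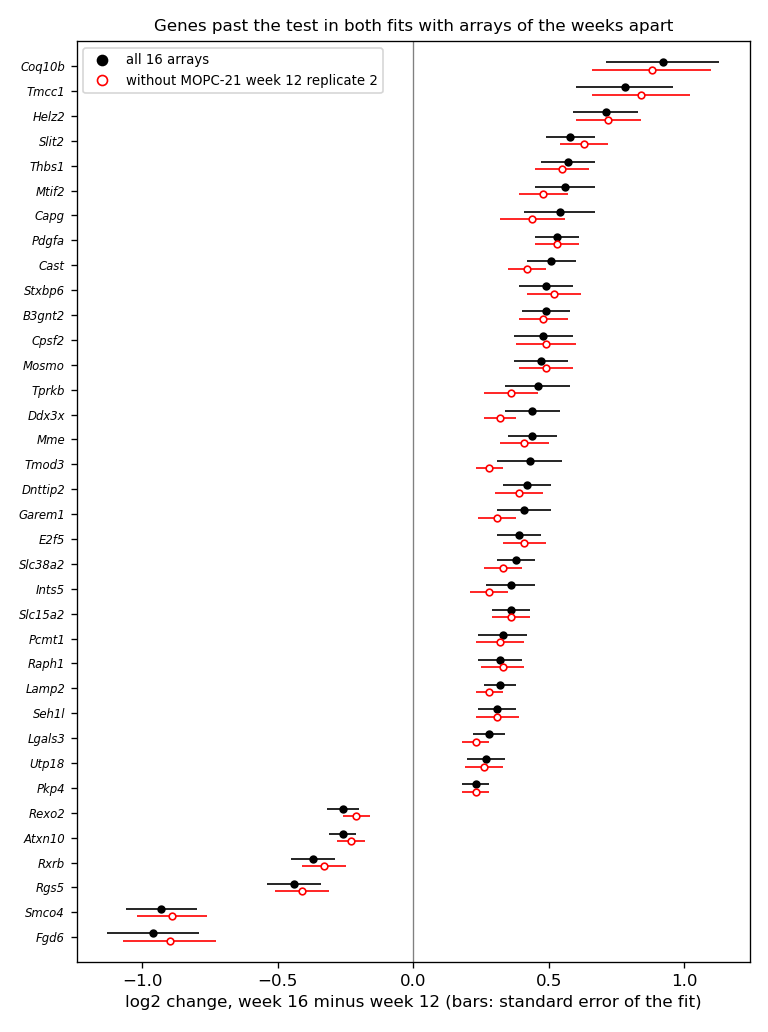
Log2 change at week 16 over week 12, with the standard error of the fit, of the 36 genes that passed in both fits and whose arrays did not overlap, with all arrays (black) and without MOPC-21 week 12 replicate 2 (red). The 30 higher genes reached 0.92 and the 6 lower ones -0.96.

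Among the 15 probe sets past a fold of 2 were single probe sets of Inppl1, Aif1l and Slco3a1 and both of Upp2. Inppl1, the inositol phosphatase SHIP2, read 6.49 to 7.15 (median 6.92) at week 16 and 3.90 to 6.87 (median 5.93) at week 12. The groups overlapped at the top of week 12, and the 4 MOPC-21 arrays of week 12 were all under 6. The change was 1.21 ± 0.22 (limma adjusted p = 0.0081). It was 2.0 in MOPC-21 mice (limma adjusted p = 0.0053) and 0.41 in untreated mice (limma adjusted p = 0.70), and the difference between the controls did not pass (limma adjusted p = 0.69). Upp2, a uridine phosphorylase, read 7.68 to 9.41 (median 8.75) at week 16 and 6.68 to 8.48 (median 7.75) at week 12, a change of 1.08 ± 0.24 (limma adjusted p = 0.019), and its second probe set changed by 1.04. Aif1l, an actin-binding protein, fell to 3.78 to 4.83 (median 4.48) at week 16, against 4.80 to 8.07 (median 5.29) at week 12, by 1.25 on the log2 scale with all arrays (limma adjusted p = 0.016) and by 0.94 without the array that stood apart, whose value was 8.07. One of 3 Slco3a1 probe sets, for an organic anion transporter, read 4.16 to 5.0 at week 16 and 2.52 to 4.05 at week 12. The weeks did not overlap, and the change was 1.27 (limma adjusted p = 0.0001). Its week 12 values lay near or below 4, the level needed for a test, so it was tested through its week 16 arrays. The brightest Slco3a1 probe set changed by 0.36 (limma adjusted p = 0.071). Probe sets of Atrn, Ddx6, Lman1 and Aph1a also passed the fold, by 1.15, 1.11, 1.04 and 1.02. The brightest probe sets of the same genes changed by 0.20, 0.19, 0.00 and -0.23 and did not pass. That of Atrn past the fold read 2.09 to 3.81 at week 12, under 4 throughout, so only its week 16 arrays let it be tested. The remaining 4 of the 15 had no gene in the annotation.

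**Figure D3:**
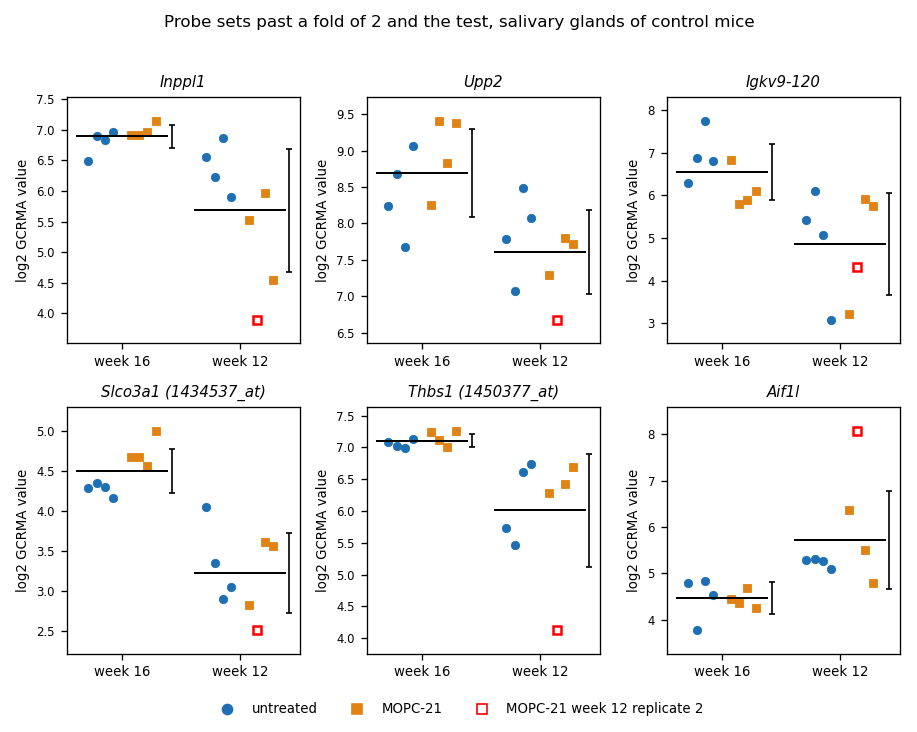
Log2 values of 6 probe sets past a fold of 2, week 16 on the left and week 12 on the right of each panel, 1 point per array, a line at the mean and a bar of 1 SD. The open red square is MOPC-21 week 12 replicate 2, which lies at the bottom of the week 12 arrays in 4 panels and at the top for Aif1l.

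Antibody genes were higher at week 16 in most measures but passed the test once. The antibody probe set that passed, for a kappa light chain variable segment, read 5.80 to 7.75 (median 6.56) at week 16 and 3.09 to 6.10 (median 5.24) at week 12. The groups overlapped over a narrow range. Its change was 1.68 ± 0.46 (limma adjusted p = 0.044), and it lost the call in 12 of the 16 fits that left out 1 array. Probe sets of variable segments share sequence, so which segment it measured is uncertain. Over 9 immunoglobulin and Jchain genes, 8 were higher, with a median of 0.74 (0.63 without the array that stood apart), and 1 passed. Jchain, which joins IgA monomers, read 8.93 to 10.46 (median 9.76) at week 16 and 8.46 to 10.11 (median 8.57) at week 12, a difference of 0.88 that did not pass (limma adjusted p = 0.28). Igha, the IgA heavy chain, read 12.86 to 13.82 at week 16 and 12.38 to 13.83 at week 12, a difference of 0.67 (limma adjusted p = 0.54). The fit took its spread from all 30 salivary arrays, untreated week 8 included. In those week 8 arrays the SD was 3.61 for Igha and 2.54 for Jchain. At weeks 16 and 12 it was 0.33 and 0.48 for Igha, and 0.44 and 0.57 for Jchain. Not passing therefore does not show that these genes were alike at both weeks. One untreated week 12 array lay within the week 16 arrays for Jchain and just above them for Igha. In LTBR-Ig glands the same 9 genes had a median of -0.76 and 1 was higher, but none passed there. The week 12 side of that change was the 2 arrays high in parotid products. Whether it differed from the change in control glands was not tested.

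**Figure D4:**
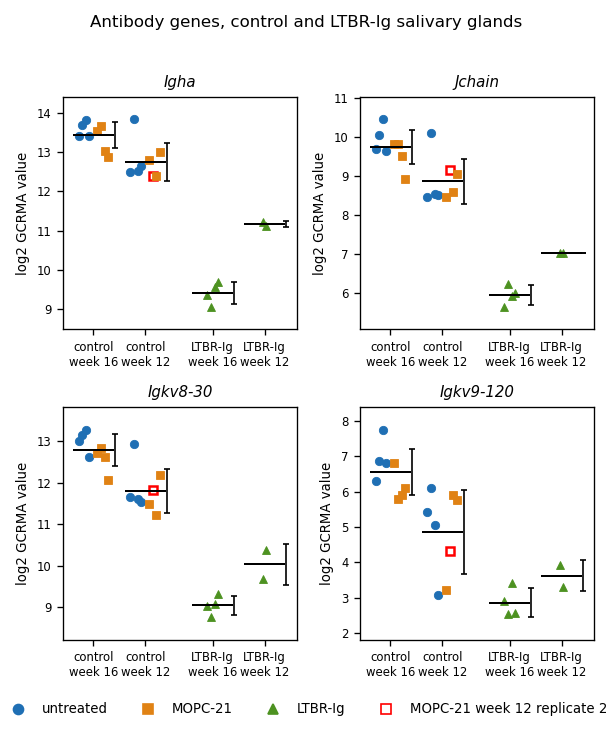
Log2 values of 4 antibody genes in control and LTBR-Ig salivary glands, week 16 to the left of week 12 in each pair, 1 point per array, with the mean and a bar of 1 SD. Control arrays of week 16 had a median of 9.76 for Jchain and those of week 12 a median of 8.57, while all LTBR-Ig arrays were lower than both. The 2 LTBR-Ig arrays of week 12 were both high in parotid products.

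Cd163 and Vcam1 were the only members of the leukocyte, MHC class II, interferon and lymphoid chemokine lists to pass. For comparison, the median change of all 9788 genes was 0.05, with 62.4% higher. The circadian clock list, which is not inflammatory, had 14 of 14 measured genes higher (median 0.26) and none passed. All 5 measured MHC class II genes were higher (median 0.47, 0.39 without the array that stood apart) and none passed. H2-Ab1 read 7.38 to 8.12 at week 16 and 5.41 to 7.99 at week 12. Of 20 interferon response genes 19 were higher (median 0.26) and none passed, and Helz2 was not on that list. Of 15 macrophage and dendritic genes all were higher (median 0.17), and Cd163, a scavenger receptor of macrophages, passed with all arrays (0.46, limma adjusted p = 0.048) but not without that array (adjusted p = 0.054). Of 6 high endothelial venule and lymphoid chemokine genes (median 0.09 with all arrays and 0.06 without that array, when 3 were higher and 3 lower), Vcam1 alone passed. The 1 measured neutrophil gene differed by 0.06, and by -0.10 without that array. Vcam1, which leukocytes bind on endothelium, read 4.07 to 5.01 (median 4.46) at week 16 and 3.18 to 4.25 (median 3.72) at week 12, a change of 0.71 ± 0.18 (limma adjusted p = 0.033), and it passed in 8 of the 16 fits that left out 1 array. The groups overlapped slightly. Of 16 B cell markers 2 were measured, as were 2 of 13 cytotoxic lymphocyte markers, and none of these passed.

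Secretory genes changed little. Klk1, a tissue kallikrein of the granular ducts, fell by 0.15 on the log2 scale (limma adjusted p = 0.019), with 15.41 to 15.62 at week 16 and 15.61 to 15.77 at week 12, but it did not pass after quantile normalization (-0.11, limma adjusted p = 0.12). It was the only one of 11 granular duct products to pass, and none of the 16 acinar products or 17 fluid secretion genes did. Wfdc12, a secreted antimicrobial protein, read 14.67 to 14.92 at week 16 and 14.91 to 15.07 at week 12, a change of -0.19 (limma adjusted p = 0.024). Asns, which makes asparagine, fell by 0.23 (adjusted p by limma 0.033) and was the only one of 22 unfolded protein response genes to pass with all arrays. It passed in 7 of the 16 fits that left out 1 array. Without the array that stood apart 2 of the 22 passed, Xbp1 among them (-0.19, limma adjusted p = 0.032), which differed by -0.05 with all arrays. Col4a1, a basement membrane collagen, differed by -0.38 (limma adjusted p = 0.044), but not without the array that stood apart (adjusted p = 0.058). Some genes passed only without that array: Postn (0.19, limma adjusted p = 0.043) and the immediate early genes Klf4 (0.61, limma adjusted p = 0.043) and Nr4a1 (-0.50, limma adjusted p = 0.019). No member of the cell cycle, complex I or lipid synthesis lists passed (medians -0.02, 0.02 and -0.04), nor of the glucocorticoid list (median 0.14).

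Parotid products varied between arrays of the same week. Amy1, salivary amylase, read 7.34 to 14.19 (median 7.63) at week 16 and 7.10 to 10.95 (median 7.58) at week 12. A single week 16 array, untreated replicate 4, held the highest Amy1, Bpifa2, Smr3a and Chia1 values, at 14.19, 14.02, 14.19 and 14.30. Smr3a was on the acinar list, so its spread enters the acinar averages, and Chia1 was on neither the acinar nor the parotid list. For Amy1, 3 week 12 arrays lay between 8.52 and 10.95. None of 6 measured parotid genes passed, and Bpifa2 had a difference of -2.19 ± 1.30. How much parotid tissue each sample held was not measured. Their part in the other results was not tested, and counts without these arrays are given with the alternatives.

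**Figure D5:**
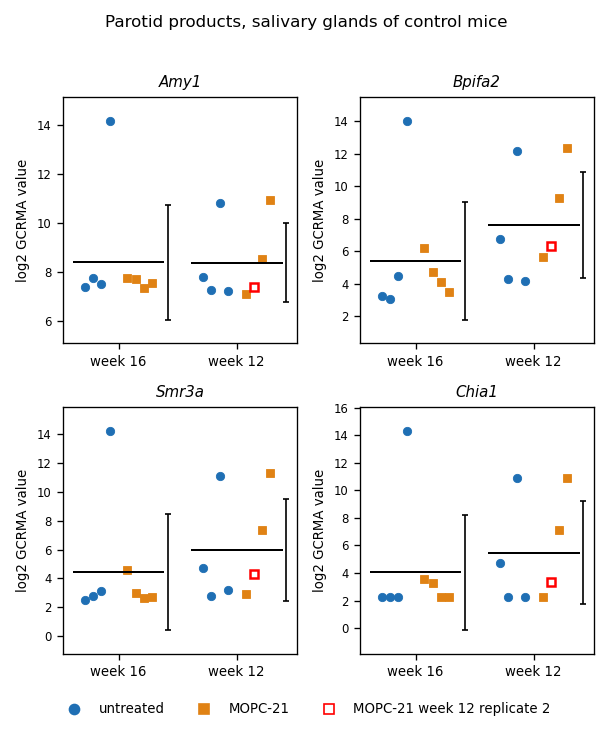
Log2 values of the parotid products Amy1 and Bpifa2, and of Smr3a and Chia1, in control salivary glands. Week 16 is on the left and week 12 on the right, 1 point per array, with the mean and a bar of 1 SD. Untreated week 16 replicate 4 lies at 14.02 to 14.30 in all 4 panels, above every other array.

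The age change was set against treatment and tissue. No probe set passed the test for a difference in age change between MOPC-21 and untreated mice (smallest limma adjusted p = 0.63). At an unadjusted p under 0.05 there were 1210 of 19385. That test is less precise than the pooled one, and 18 probe sets were called without MOPC-21 week 12 replicate 4. It therefore does not show that the controls changed alike, and they were described together with that limit. MOPC-21 mice alone gave 51 calls (0.263%) and untreated mice alone 2 (0.0103%), and without the array that stood apart 8 and 6. In the lacrimal gland, 4548 of 21520 probe sets passed over the same weeks (21.1%), and the salivary change differed from the lacrimal one for 158 probe sets at a fold of 2 (0.734%), 27 more positive and 131 more negative in salivary glands, and for 69 without that array. Upp2 and Inppl1 changed by 1.29 and 1.25 more in salivary glands (limma adjusted p = 0.01 and 0.013). The Rgs5 change differed by -1.02 (limma adjusted p = 0.003), and in lacrimal glands it was 0.58. The change of Naip5, an inflammasome sensor, differed by -1.53, also without the array that stood apart (-1.52, limma adjusted p = 0.017). That of Blk, a B cell kinase, differed by -1.61 but not past the test without that array (-1.60, limma adjusted p = 0.053). In salivary glands neither gene reached the minimum for a test. Of the 36 genes without overlap, 8 passed the tissue test, where 2.92% of all probe sets did. The 36 were chosen for their salivary change, which is part of that difference, so a larger share follows from the choice. Of the 8, only Pdgfa, Fgd6 and Rgs5 also passed without the array that stood apart. Of the 596 probe sets that passed in control glands, 520 had the same direction in LTBR-Ig glands (87.2%), against 63.8% of all probe sets, and 8 passed in both (in LTBR-Ig glands 38 passed in all, 0.196%, and 17 with a fold of 2, 0.0877%). Of those 596, 84.9% were higher, and the median change of all probe sets in LTBR-Ig glands was 0.06. Whether the agreement holds after quantile normalization or median centring was not tested. The 2 LTBR-Ig arrays of week 12 were both high in Amy1, at 11.77 and 14.88.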

How the data were processed

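The authors deposited log2 expression values normalized by GCRMA (version not given in the sources used here) for 61 Affymetrix mouse arrays with 45101 probe sets, and these were used as they stand. Arrays were grouped by their labels. The fit was made with limma 3.58.1 (R 4.3.3) over the 30 salivary arrays, with 8 group means and an intensity trend, on the probe sets that exceeded 4 on the log2 scale in 2 or more of the 16 arrays compared. The contrast was the mean of both control groups at week 16 minus that at week 12. Calls needed a fold of 2 and a p under 0.05 after Benjamini-Hochberg adjustment, and passing the test needed that p alone. All 61 arrays entered the tissue comparison. The annotation gave 1 symbol for 34958 probe sets, several for 932 and none for 9211, and the brightest salivary probe set with 1 symbol stood for its gene. Genes were named by rule. It took the 12 top rises and falls among those called (where fewer, the smallest p at a fold of 2), up to 4 called members of each of 28 lists or else the 2 with the smallest p, 6 markers, and 5 called genes per direction in the treatment and tissue comparisons. Genes apart in both fits were added after their values were seen. Members and lists were chosen with earlier results of these data known. Replicate numbers did not pair the arrays (24 pairs, correlations -0.28 to 0.29, 3 over 0.1). Alternatives covered the arrays fitted, filter, scaling, weights, trend and each array left out. The script was tested on simulated data. The number of arrays limits the precision.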

Additional observations from a re-analysis of the deposited data

Results flagged for a closer look

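In the groups of 8 arrays, 30 values of named genes in 200 gene and week combinations lay far from the rest by Dixon's test, where chance flags about 1 in 20. Each value is given with its nearest neighbour in brackets. The array MOPC-21 week 12 replicate 2 stood out for Malat1 8.14 (11.53), Ltf 6.48 (7.51), Pecam1 3.51 (4.49), Krt14 6.22 (6.79), Ano1 11.04 (10.56), Pnpla2 6.42 (7.66), Pdk4 6.20 (5.49), Mcm2 3.37 (4.70), Cp 6.54 (7.09), Vapb 5.42 (7.10), Capg 6.02 (6.53), Cast 6.56 (7.08), Ddx3x 10.54 (11.32), Tmod3 7.12 (8.26), Garem1 7.05 (7.80), Lgals3 10.67 (10.91) and Rexo2 9.37 (9.05). The array untreated week 16 replicate 4 stood out for Bpifa2 14.02 (6.22), Smr3a 14.19 (4.60), Chia1 14.30 (3.55) and Amy1 14.19 (7.75). The array MOPC-21 week 16 replicate 4 stood out for Klk1 15.41 (15.54), Klk1b11 15.22 (15.37) and Fgd6 3.86 (4.34). The array untreated week 16 replicate 1 stood out for Gzma 4.76 (4.26) and Thbs1 7.90 (8.07). The array untreated week 12 replicate 3 stood out for Ebf1 3.37 (3.87). The array MOPC-21 week 16 replicate 2 stood out for Pecam1 5.52 (4.86). The array MOPC-21 week 16 replicate 1 stood out for Bpgm 6.55 (6.04). The array untreated week 12 replicate 1 stood out for Utp18 6.63 (6.98). Of the 30, 17 were in MOPC-21 week 12 replicate 2, the array with the low Gapdh control value. Those of Amy1, Bpifa2, Smr3a and Chia1 were in untreated week 16 replicate 4.

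The age change differed between salivary and lacrimal glands, by a test of the difference, for 20 named genes, 12 of them with a fold of 2. Of the 20, 9 also passed without MOPC-21 week 12 replicate 2: Vapb 1.39, Upp2 1.29, Inppl1 1.25, Igk 1.22, Fgf9 1.07, Pdgfa 0.70, Fgd6 -0.93, Rgs5 -1.02 and Naip5 -1.53, where a positive value is a more positive change in salivary glands. The other 11 did not pass without that array: Coq10b 0.93, Stxbp6 0.53, Mtif2 0.49, Pkp4 0.38, Ndufb10 0.30, Atxn10 -0.27, Egr1 -1.32, Haao -1.55, Ifi209 -1.55, Blk -1.61 and Nxpe3 -1.63. For Nxpe3, Blk, Haao and Ifi209 the difference was about as large without it, at -1.62, -1.60, -1.56 and -1.50. The Vapb difference was 1.13 without that array, and its change was -1.09 in lacrimal glands, while in salivary glands it was 0.30 with that array and 0.04 without it.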

How the results depend on the processing

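The count of probe sets called was 15, and 596 passed with no minimum fold. Counts were 4 and 169 with only the 16 control arrays in 2 pooled groups, 5 and 131 with those arrays in 4 groups, 8 and 224 with no filter, 8 and 396 after quantile normalization and 9 and 1627 with array weights, and 7 were called after median centring. With the replicate number as a block among the 16 arrays, 3 were called and 38 passed, and each control alone then gave 0; the numbers did not pair the arrays. A posterior probability of no change under 0.05 with a fold of 2, the kind of rule the study's methods state, called 3. Leaving out each array in turn called 6 to 65 and 200 to 2016 passed. Chosen after seeing the data, leaving out the 4 control arrays with Amy1 above 8 gave 351 and 3569, and leaving out those and MOPC-21 week 12 replicate 2 gave 69 and 1603; the cause was not tested. Untreated mice alone gave 2, 0 with only the 16 arrays in 4 groups and 0 to 6 over the arrays left out, and MOPC-21 mice alone gave 51, 5 with only those arrays and 5 to 408. The difference between the controls gave 0, and 0 to 18 over the arrays left out, with 18 without MOPC-21 week 12 replicate 4. LTBR-Ig glands gave 17, and 49 without MOPC-21 week 12 replicate 2. The tissue difference gave 158, 27 with only control arrays of weeks 12 and 16 and 69 without that array. Of 100 named genes, 46 passed and all 46 kept their direction under every one of 28 alternatives that could be run for them. The 46 include the 36 that were chosen for passing in both fits with no overlap. Their passing, and part of their stable direction, follow from that choice. Sign changes fell on 14 genes that did not pass. After quantile normalization and after median centring they were Ebf1 -0.07 and -0.11, Ltf -0.03 and -0.05, Eno3 -0.09 and -0.10, Bpgm -0.03 and -0.03, Eif2s3y -0.04 and -0.07 and Amy1 -0.07 and -0.09, and after median centring alone Klk1b11 -0.04, Lmo7 0.00 and Ndufb10 0.00. With array weights they were Ltf -0.10, Pnpla2 -0.04, Eno3 -0.01, Mcm2 -0.01 and Amy1 -0.56. Without the arrays high in Amy1 and the array that stood apart they were Ltf -0.12, Tfcp2l1 0.00, Pnpla2 -0.23 and Mcm2 -0.02. Over the arrays left out in turn, Ebf1 ran from -0.07 to 0.04, Ltf from -0.10 to 0.14, Ccl5 from -0.03 to 0.20, Pnpla2 from -0.06 to 0.24, Eno3 from -0.04 to 0.04, Bpgm from 0.00 to 0.11, Mcm2 from -0.02 to 0.25, Amy1 from -0.81 to 0.44 and Adipoq from -0.69 to 0.08. Of 753 values of list medians, 16 moved by more than the spread between arrays. GCRMA values near the floor of 4 are not well measured. This limits Fgd6, Vcam1, most leukocyte markers and the Slco3a1 and Atrn probe sets past a fold of 2.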
